A study of Mus musculus with 10 samples.

Results

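Levels of 10 genes of lipid uptake, carriage and efflux, with their nuclear receptors, were followed in the mouse myeloma line J558, with and without the transcription factor Pax5. Each member was read from the probe set carrying its symbol alone, and from the one with the highest mean where a gene had several; 9 of the 10 genes were measured among 19937 genes. Nr1h2 had no such probe set here and has no value. The genes were chosen by role in lipid handling and also selected on measured log2 levels: Cd36 for the largest rise, and Abcg1 for a fall, in cells given Pax5 against empty vector. The differences from empty vector are therefore given as a description, with standard errors and intervals but no p-value, and calls in them are counted only as a description. Tests for the members are those of mutant against wild-type Pax5. For Cd36, Abcg1 and Abca1 the relation to Pax5 level among the arrays with a Pax5 vector was tested too.

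All cells were J558 cells transduced with the retroviral vector MSCV-Puro-IRES-GFP (PIG), which carries puromycin resistance and green fluorescent protein. The 3 empty-vector cultures received no insert, 3 received Pax5 WT and 4 received Pax5 G183S, a form with serine in place of glycine. All 3 groups, the control included, went through 5 to 7 days of puromycin and a sort on GFP and IgM. The labels number biological replicates without saying whether they were separate transductions, so p-values measure the spread between these samples. The label protocols name Affymetrix whole-transcript labelling from 100 ng of total RNA. Pax5 is expressed from a retroviral vector in 1 myeloma line, which limits the cells as a model of B cells. The title of the series concerns inherited PAX5 changes and leukaemia of B-cell precursors, and the comparisons ask what each form of Pax5 changes in these cells.

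Cells take up fatty acids and oxidised lipid through scavenger receptors such as Cd36, carry them inside on binding proteins, and export surplus sterol through the transporters Abca1 and Abcg1. The liver X receptors, encoded by Nr1h3 and Nr1h2, are switched on by oxysterols and are best known for inducing Abca1 and Abcg1, whereas Pparg, a receptor for fatty acid derivatives, induces Cd36 in macrophages. Cd36 is also a known surface protein of marginal zone B cells.

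RefSeq promoter windows of GRCm38.p6 were held for 6 of the 10 genes, at 11 start sites. None was held for Abcg1, Lpl, Fabp5 or Scarb1. The windows of Cd36, the gene with the largest rise, and of Abca1, an efflux gene on the other side of the pathway, are shown here as the 250 bases before the annotated start, read along the gene. That of Cd36 is chr5:17835897-17836146 on the minus strand and that of Abca1 is chr4:53159896-53160145 on the minus strand. Capitals mark matches to any of 5 motifs searched on both strands.
Cd36: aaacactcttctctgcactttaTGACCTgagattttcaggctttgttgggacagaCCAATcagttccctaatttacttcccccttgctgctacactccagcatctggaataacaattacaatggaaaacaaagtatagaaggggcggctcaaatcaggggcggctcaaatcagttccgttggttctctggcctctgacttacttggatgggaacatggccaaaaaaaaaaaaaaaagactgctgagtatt
Abca1: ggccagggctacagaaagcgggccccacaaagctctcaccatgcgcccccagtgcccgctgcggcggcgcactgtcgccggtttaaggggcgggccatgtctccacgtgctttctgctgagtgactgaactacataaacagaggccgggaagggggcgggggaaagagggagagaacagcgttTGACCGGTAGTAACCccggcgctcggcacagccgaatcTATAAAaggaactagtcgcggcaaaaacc
The capitals in the Cd36 window are AGGTCA, the core hexamer of nuclear receptor sites, on the opposite strand starting 228 bases before the start, and CCAAT 195 bases before it. Those in the Abca1 window are a direct repeat of that hexamer's core with a 4-base spacer (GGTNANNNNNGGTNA), on the opposite strand 67 bases before the start, and TATAAA 29 bases before it. The repeat is the arrangement that liver X receptors are known to bind. It was found in 0.621% of 32851 promoter windows of the same length, the hexamer in 4607 of them, TATAAA in 12.4% and CCAAT in 33.8%. GCGTGAC, a core of Pax5 sites, occurred in 0 of the 11 windows of those 6 genes, Abcg1 not among them, and in 1.78% of all windows. At that share a count of 0 in 11 windows says little. A match describes letters in the window and no motif was tested against the expression values.

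Array medians lay between 6.81 and 6.94 log2 units. Over genes, arrays of 1 group correlated at 0.985 to 0.998 (Pearson r) and arrays of different groups at 0.978 to 0.995. On the first principal component, with 42.2% of the variance, the G183S replicate 1 array scored 24.85 and the other G183S arrays -8.75, -21.62 and -12.56, against 2.12 to 39.57 for the wild-type arrays. Results that rest on that array are given with and without it. Pax5 itself, which checks the labels of empty vector against Pax5, read 6.84 to 7.10 log2 units with empty vector. It read 10.05 to 10.67 with wild type and 9.38 to 10.36 with G183S. These 2 ranges overlapped, so the Pax5 level does not check the labels of wild type against G183S. A gene was called where limma's Benjamini-Hochberg adjusted p over all 19937 genes was under 0.05. By that rule 1.88% of genes were called with wild type against empty vector, 0.311% with G183S against empty vector and 0.0% between G183S and wild type. With wild type 176 genes were higher (0.883%) and 198 lower (0.993%), and with each array centred on its median 100 and 218. With G183S 0.1% were higher and 0.211% lower.

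Cd36, the fatty acid and oxidised-lipid receptor, stood at 4.73, 4.82 and 4.82 log2 units with empty vector. In replicate order it stood at 11.14, 11.52 and 10.65 with wild type, and at 11.82, 10.22, 8.86 and 10.80 with G183S. Every array with a Pax5 vector lay far above every empty-vector array, and the lowest of them, G183S replicate 3, was also the array with the least Pax5. The log2 difference from empty vector was 6.31 ± 0.58 (SE) with wild type, a ratio of 79.3, and 5.63 ± 0.54 with G183S, a ratio of 49.6. Leaving out any 1 array gave 6.10 to 6.53 with wild type and 5.17 to 6.15 with G183S. The empty-vector level was below 7.23, the median over genes, and no background signal was used, so how far background limits these ratios is not known. An array reads RNA pooled over the sorted cells, so more cells with the transcript and more transcript per cell cannot be told apart.

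The other uptake genes stayed within narrow ranges. Lpl, the lipase that frees fatty acids from circulating triglyceride, read 5.43 to 5.56 log2 units with empty vector, 5.28 to 5.59 with wild type and 5.31 to 5.73 with G183S. Scarb1, a receptor of the same family as Cd36 that binds high-density lipoprotein, read 9.29 to 9.50, 9.23 to 9.80 and 9.39 to 9.76 log2 units. The 3 groups overlapped for both genes. The log2 differences from empty vector were -0.003 and 0.030 for Lpl and 0.11 and 0.20 for Scarb1, with 95% intervals of -0.26 to 0.25 for Lpl with wild type and of -0.09 to 0.50 for Scarb1 with G183S.

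**Figure D1:**
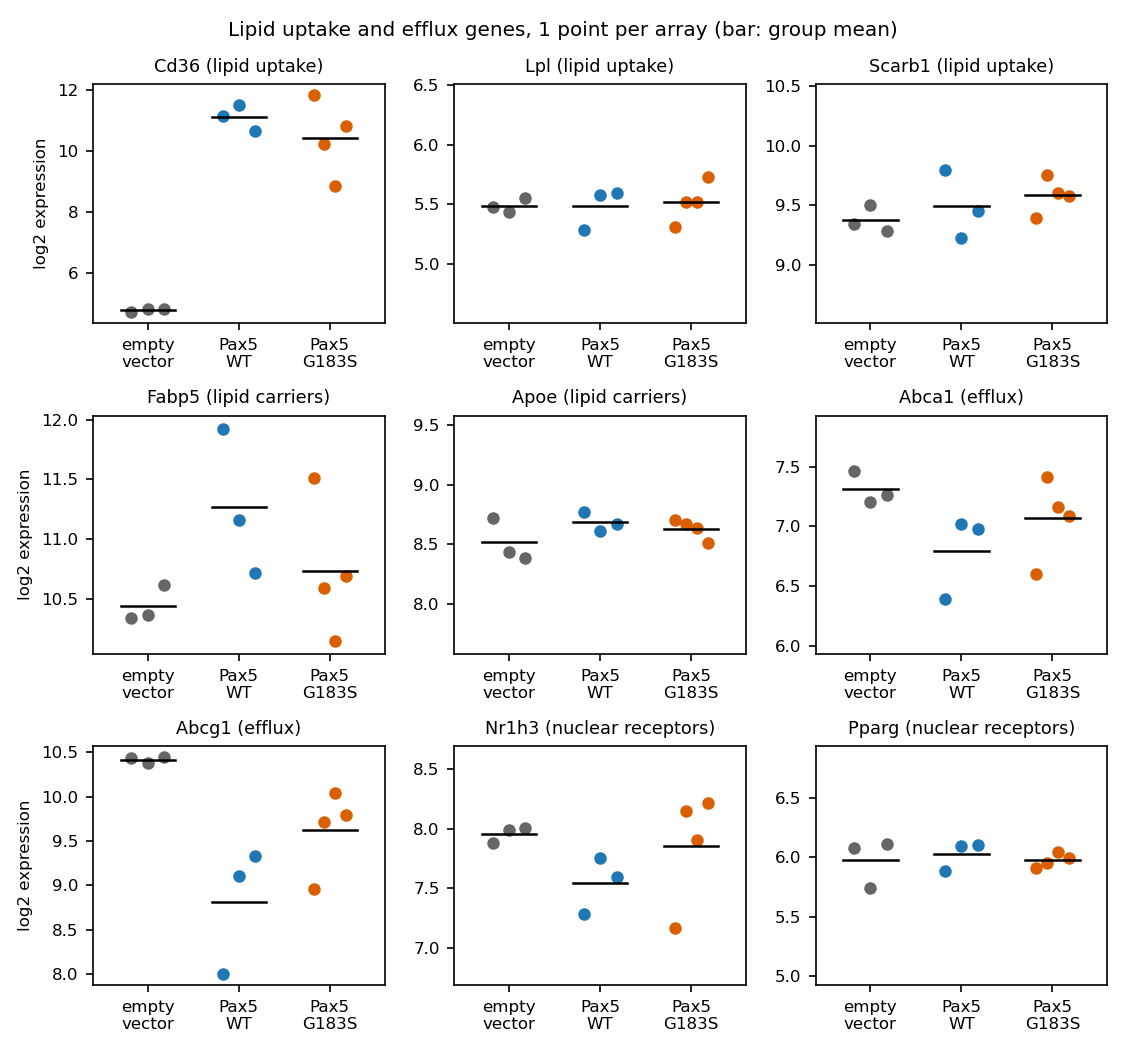
Log2 expression (vertical axis, a separate scale in each panel) of the 9 measured genes in each of the 10 arrays, by group; points are arrays in replicate order and bars are group means. Cd36 rose from 4.73 to 4.82 with empty vector to 8.86 or more in each Pax5 array, Abcg1 lay below all 3 empty-vector arrays in each Pax5 array, and Lpl, Scarb1, Apoe and Pparg overlapped between groups.

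Among the carriers, Fabp5, which binds fatty acids inside the cell, read 10.33, 10.36 and 10.61 log2 units with empty vector and 11.92, 11.16 and 10.71 with wild type. The G183S arrays read 11.51, 10.59, 10.15 and 10.69. All wild-type arrays lay above the empty-vector arrays, while the G183S arrays overlapped them on both sides. The log2 difference was 0.83 ± 0.35 (SE) with wild type and 0.30 ± 0.33 with G183S, and the first replicate was the highest of both Pax5 groups. The second probe set carrying the Fabp5 symbol gave 0.68 and 0.27. Without wild-type replicate 1 the wild-type difference was 0.50, and without G183S replicate 1 the G183S difference was 0.04.

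Apoe, the apolipoprotein that carries lipid between cells and accepts exported sterol, read 8.39 to 8.73 log2 units with empty vector, 8.61 to 8.78 with wild type and 8.52 to 8.71 with G183S. The groups overlapped, and the differences were 0.17 ± 0.10 (SE) and 0.12 ± 0.09 log2 units.

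Abcg1, the transporter that moves sterol out of the cell to lipoprotein particles, was lower with Pax5. It read 10.44, 10.38 and 10.45 log2 units with empty vector, 7.999, 9.11 and 9.33 with wild type, and 8.96, 9.71, 10.05 and 9.80 with G183S. No Pax5 array reached the empty-vector range, and the first replicate was the lowest of both Pax5 groups. The log2 difference was -1.61 ± 0.34 (SE) with wild type and -0.79 ± 0.32 with G183S, ratios of 3.05 and 1.73. It was -1.20 without wild-type replicate 1 and -0.57 without G183S replicate 1.

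Abca1, which exports sterol and phospholipid to lipid-poor apolipoproteins, read 7.47, 7.205 and 7.26 log2 units with empty vector. The wild-type arrays read 6.39, 7.02 and 6.98 and the G183S arrays 6.60, 7.42, 7.16 and 7.09. All wild-type arrays lay below the empty-vector arrays, but G183S replicate 2 lay among them. The log2 difference was -0.51 ± 0.21 (SE) with wild type and -0.24 ± 0.20 with G183S. It was -0.31 without wild-type replicate 1, and -0.09 with G183S without G183S replicate 1. As for Abcg1, the first replicate was the lowest of both Pax5 groups.

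Nr1h3, the liver X receptor alpha gene, read 7.88, 7.99 and 8.005 log2 units with empty vector, 7.28, 7.76 and 7.59 with wild type, and 7.16, 8.15, 7.91 and 8.21 with G183S. The wild-type arrays lay below the empty-vector arrays, and the G183S arrays lay on both sides of them, again with the first replicate lowest. The log2 difference was -0.41 ± 0.24 (SE) with wild type and -0.10 ± 0.23 with G183S, the latter 0.13 without G183S replicate 1. Pparg read 5.74 to 6.11, 5.88 to 6.10 and 5.91 to 6.04 log2 units in the 3 groups, which overlapped. Its log2 differences were 0.047 ± 0.11 and -0.0039 ± 0.10 (SE), at levels below the median over genes.

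With wild-type Pax5, 2 of the 9 measured members were called, Cd36 higher and Abcg1 lower, beside 1.88% of all genes. With G183S 1 was called, Cd36, beside 0.311%. These counts include the genes the choice was made on, and nothing is read from them. With wild type the groups did not overlap for 5 of 9 members, beside 24.0% of all genes. Of these 2 were higher (11.5% of all genes) and 3 lower (12.5%). With G183S the groups did not overlap for 2, beside 11.6%, with Cd36 higher (5.02%) and Abcg1 lower (6.56%). The median log2 difference of the members was 0.047 with wild type and 0.030 with G183S, and that of all genes 0.013 and -0.0033. Abcg1 missed the threshold without any 1 of the empty-vector arrays, wild-type replicates 1 or 2, or G183S replicates 2 or 4, so that only Cd36 was called there. Both comparisons share the 3 empty-vector arrays.

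**Figure D2:**
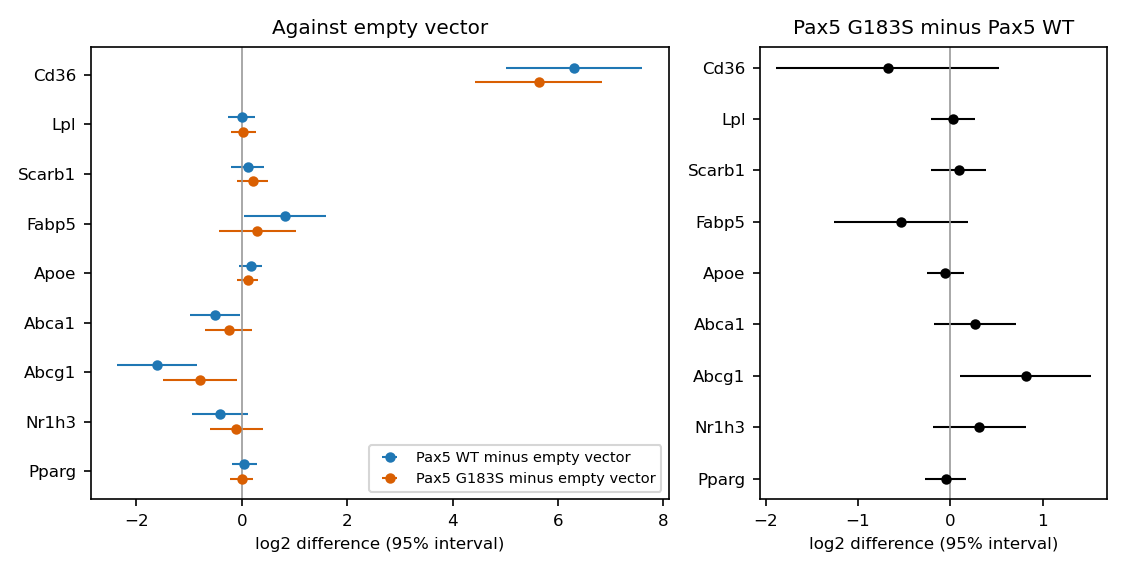
Log2 differences (horizontal axis) with 95% intervals from the fit over all genes, for the 9 measured genes; left, each Pax5 form minus empty vector, right, G183S minus wild type. Cd36 stands at 6.31 and 5.63 on the left, and on the right the interval of Abcg1 runs from 0.11 to 1.53 while the other 8 cross 0.

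Between G183S and wild type no member passed limma's adjusted threshold, as for all genes, of which 0.0% were called. Without adjustment 1 of 9 members, Abcg1, had p under 0.05, beside 9.48% of all genes, and the groups overlapped for every member, whereas 6.5% of all genes had groups apart (2.33% higher and 4.17% lower with G183S). Abcg1 was higher with G183S by 0.82 ± 0.32 log2 units (SE; 95% interval 0.11 to 1.53; limma adjusted p = 0.508). Its G183S replicate 1 fell among the wild-type arrays and the other G183S arrays lay above them. Cd36 was at a lower mean with G183S, with a difference of -0.68 ± 0.54 (95% interval -1.89 to 0.53; limma adjusted p = 0.681). Fabp5 differed by -0.53 ± 0.33 (interval -1.26 to 0.20; limma adjusted p = 0.597), Abca1 by 0.27 ± 0.20 (interval -0.17 to 0.72; adjusted p = 0.655) and Nr1h3 by 0.31 ± 0.23 (interval -0.19 to 0.82; adjusted p = 0.647). The intervals of Lpl, Scarb1, Apoe and Pparg lay within -0.27 to 0.39 log2 units. Leaving out any 1 array gave -1.14 (without G183S replicate 1) to -0.16 (without G183S replicate 3) for Cd36. The ranges were -0.81 to -0.20 for Fabp5 and 0.068 to 0.43 for Abca1, whose highest value came without G183S replicate 1. Without G183S replicate 1, Nr1h3 was higher with G183S by 0.55 ± 0.13 log2 units (limma adjusted p = 0.0396), among 1113 genes called, and Abcg1 by 1.04 (adjusted p = 0.0611). Without wild-type replicate 1 the differences were smaller, 0.41 for Abcg1 (limma adjusted p = 0.734) and 0.18 for Nr1h3 (adjusted p = 0.861). The ranges with any 1 array left out were 0.41 to 1.08 for Abcg1 and 0.18 to 0.55 for Nr1h3. Over all settings tried the adjusted p ran from 0.0309 to 0.845 for Abcg1 and from 0.0396 to 0.895 for Nr1h3.

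Within the 7 arrays that carry a Pax5 vector, the level of Pax5 was set against the levels of Cd36, Abcg1 and Abca1, 3 relations in all. The adjustment covers these 3 only. The other measured members were not set against Pax5, among them Fabp5, which differed more from empty vector than Abca1. The relations therefore do not show whether Abcg1 stands out among the members. Abcg1 was lower where Pax5 was higher (Pearson r = -0.785, exact permutation p = 0.024, 0.071 after Benjamini-Hochberg adjustment; Spearman rho = -0.786, p = 0.048, adjusted 0.144). With each group centred on its mean the values were r = -0.755 (permutation p = 0.034, adjusted 0.101) and rho = -0.929 (permutation p = 0.007, adjusted 0.02). Centring ties the values within each group, and the permutation exchanged them between groups. The p-values of the centred setting are therefore approximate. Without wild-type replicate 1 and G183S replicate 3, the arrays farthest from the median Pax5 level, r was -0.074 and rho -0.4 over 5 arrays, so the Pearson relation rests on those arrays. For Cd36 r was 0.67 (exact permutation p = 0.146, adjusted 0.218) and rho 0.429 (p = 0.354, adjusted 0.354), and without the same 2 arrays r was -0.163 and rho -0.1. For Abca1 r was -0.499 (exact permutation p = 0.228, adjusted 0.228) and rho -0.429 (p = 0.354, adjusted 0.354), and without them r was 0.252 and rho 0.1.

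**Figure D3:**
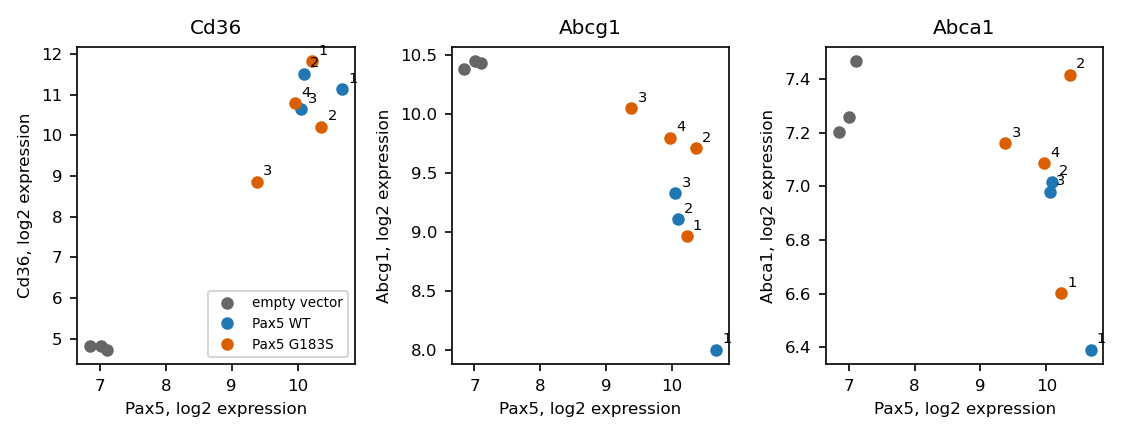
Log2 expression of Cd36, Abcg1 and Abca1 (vertical axes) against that of Pax5 (horizontal axes) in the 10 arrays; numbers beside points are replicates of the Pax5 groups. The empty-vector arrays sit apart at a Pax5 level of 6.84 to 7.10, G183S replicate 3 has the lowest Cd36 of the Pax5 arrays at 8.86, and wild-type replicate 1 has the lowest Abcg1 at 7.999.

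Genes with the most similar pattern over the 10 arrays were taken by Pearson r of log2 levels among 1820 named genes that ranged over at least 1 log2 unit. All 10 arrays enter, so the values carry the difference between groups as well as the spread within them. For Cd36 they were the transcription factor gene Irf8 (r = 0.981), Pax5 (0.978), the sorting nexin gene Snx2 (0.967), H2-Ob of MHC class II (0.963) and the sestrin gene Sesn3 (0.962). For Abcg1 they were St7l (0.987), the carboxypeptidase gene Scpep1 (0.986), Arhgap45 (0.979), Tsc22d3, a gene induced by glucocorticoids (0.978), and D17H6S53E (0.977). For Abca1, with lower values, they were Tnrc6c (0.935), Gtpbp2 (0.922), Klhdc1 (0.921), Susd6 (0.92) and Slc22a15 (0.917).

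The other genes of lipid handling were taken from 7 lists of 126 genes, 110 of them measured and none a member. The lists were chosen with earlier results of these data known. Their differences from empty vector, with the calls and limma p-values, are therefore a description. With wild type 2 were called higher and 3 lower, 4.55% beside 1.88% of all genes, and their median log2 difference was -0.037 beside 0.013. An unadjusted limma p under 0.05 was found for 34 of them, beside 15.9% of all genes. With G183S 0 of 110 were called, 25 had an unadjusted limma p under 0.05 (11.3% of all genes did), and the groups did not overlap for 28 (25.5%, beside 11.6% of all genes). With wild type they did not overlap for 45 (40.9%, beside 24.0%). The wild-type count was 0 without empty-vector replicates 2 or 3, where 0.105% and 0.0301% of all genes were called. It was 1 (0.909%) without empty-vector replicate 1 or wild-type replicate 1, beside 0.612% and 0.451% of all genes. Without G183S replicates 2 or 4 it was 3 (2.73%), beside 1.06% and 1.07%. It was 10 and 8 without G183S replicates 1 and 3 (9.09% and 7.27%, beside 5.18% and 2.22% of all genes), and the count with G183S was 2 in each of these cases (1.82%, beside 1.48% and 0.722%).

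Genes of lipid droplets, the stores of neutral lipid, held 4 of the 5 calls, 22.2% of the list's 18 measured genes beside 1.88% of all genes. With wild type 2 of 18 rose, Dgat2, which makes triglyceride (0.56 ± 0.08 log2 units, SE; limma adjusted p = 0.0175), and Bscl2, encoding seipin, which shapes the droplet (0.66 ± 0.13; adjusted p = 0.0423). The other 2 fell, the droplet coat gene Plin3 (-1.06 ± 0.18; adjusted p = 0.026) and Gpam, which starts glycerolipid synthesis (-0.48 ± 0.08; adjusted p = 0.0216). Plin3 read 11.24, 11.34 and 11.21 log2 units with empty vector, 9.86, 10.28 and 10.44 with wild type, and 10.27, 10.38, 10.90 and 10.78 with G183S. The G183S arrays of Plin3 lay below the empty-vector arrays too, with a log2 difference of -0.68 that did not pass (limma adjusted p = 0.13). The median of the droplet list was -0.14 with wild type and -0.078 with G183S.

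The largest differences on that list belonged to genes that were not called and were chosen here after their values were seen. Mgll, which releases fatty acid from monoglyceride, read 5.86 to 6.01 log2 units with empty vector, 7.24 to 8.65 with wild type and 6.17 to 8.22 with G183S (2.21 ± 0.51 and 1.55 ± 0.47, SE; limma adjusted p = 0.0611 and 0.2). Plin2, the main droplet coat protein of many cells, read 10.56 to 11.80, 8.90 to 10.41 and 9.89 to 12.08 (-1.62 ± 0.59 and -0.54 ± 0.55; limma adjusted p = 0.21 and 0.825). Its wild-type arrays lay below the empty-vector arrays, and G183S replicate 3 lay above them.

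Of 19 genes of lipoprotein remodelling and sterol trafficking, 1 was called with wild type, Abca7, a transporter related to Abca1 (-0.55 ± 0.11 log2 units, SE; limma adjusted p = 0.0439). The endothelial lipase gene Lipg had the largest difference of any listed gene without passing. It read 6.01, 5.84 and 6.47 log2 units with empty vector, 10.49, 8.78 and 8.20 with wild type, and 10.23, 9.57, 6.98 and 8.23 with G183S. All 7 Pax5 arrays lay above the empty-vector arrays, from 6.98 up to 10.49 (3.05 ± 0.79 with wild type, limma adjusted p = 0.0912; 2.65 ± 0.74 with G183S, adjusted p = 0.163). Lmf1, a maturation factor of lipases, was at -0.50 with wild type (limma adjusted p = 0.151).

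No gene passed with either Pax5 form among 14 of fatty acid uptake and activation, 15 lipoprotein and scavenger receptors, 11 liver X receptor targets and partners, 15 PPAR partners and targets, or 18 Cd36 partners and ligands. Their medians lay between -0.12 and 0.045 log2 units with wild type and between -0.14 and 0.077 with G183S. In the fatty acid list the transporter gene Slc27a4 was at -0.34, Fabp3 at 0.38 and Acsl4 at 0.34 with wild type (limma adjusted p = 0.0754, 0.141 and 0.16). Among receptors, Lrp10 was at -0.86, Scarb2 at -0.58 and Marco at 0.25 (adjusted p = 0.108, 0.23 and 0.27).

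Liver X receptor targets and partners other than the members showed small log2 differences with wild type, from -0.25 to 0.18 over the list. They included Srebf1, the regulator of fatty acid synthesis, at -0.25 (limma adjusted p = 0.345), Lpcat3 at -0.18 (adjusted p = 0.352) and Mylip at 0.18 (adjusted p = 0.414). In the PPAR list, 10 of 15 genes were negative with wild type, with Ppard at -0.73 (limma adjusted p = 0.0816), Ppara at -0.34 (adjusted p = 0.0845) and Pdk4 at 0.28 (adjusted p = 0.129). Ppara was at -0.47 with G183S (limma adjusted p = 0.052), with all 4 G183S arrays at 6.63 to 6.92 log2 units and the empty-vector arrays at 7.11 to 7.27. Among Cd36 partners, Vav1 was at -0.56, Tlr2 at -0.44 and Cd81 at -0.41 with wild type (limma adjusted p = 0.169, 0.205 and 0.279).

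**Figure D4:**
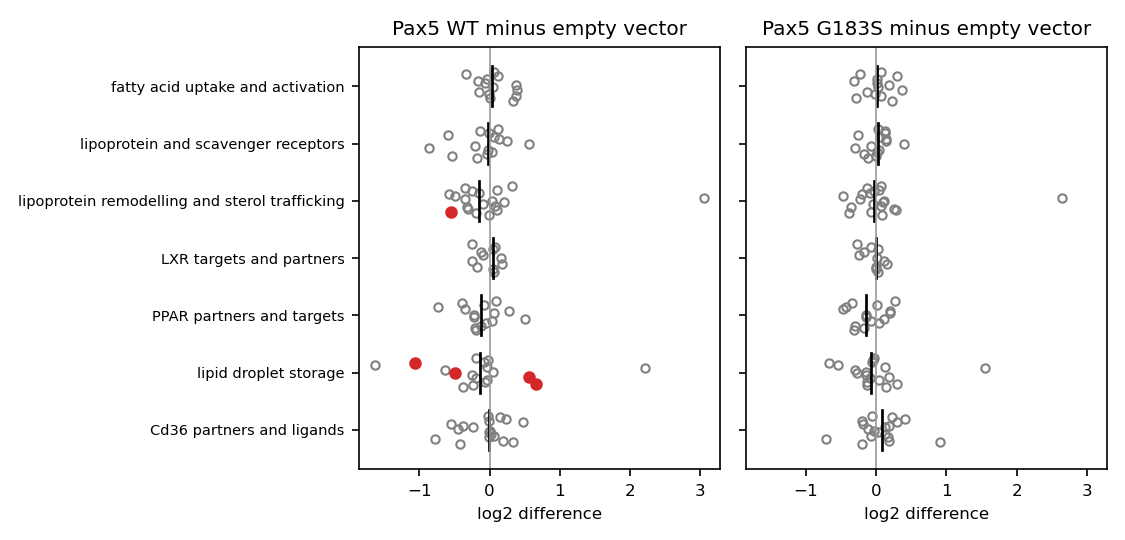
Log2 differences from empty vector (horizontal axis) of the measured genes of the 7 lipid lists, wild type left and G183S right; filled red points were called, open points were not, and black bars are list medians. The 5 called genes are in the droplet and lipoprotein lists on the left, and the open point farthest right is Lipg, at 3.05 and 2.65.

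Between G183S and wild type 0 of the 110 genes were called and 11 had an unadjusted limma p under 0.05, a share near the 9.48% of all genes. Dgat2 was the listed gene with the smallest adjusted p, with a log2 difference of -0.38 ± 0.08 (SE; limma adjusted p = 0.444), with all G183S arrays below the wild-type arrays. Without G183S replicate 1, 8 of the 110 were called (7.27%), beside 5.58% of all genes.

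Cd36 is also a marker of macrophages, adipocytes, endothelium and platelets, so the markers of these cells were read beside it. All marker lists, here and below, were chosen with earlier results of these data known. Their calls and limma p-values are therefore a description. All 9 macrophage and all 5 measured adipocyte markers had group means below the median over genes in every group. Summed over the list on the linear scale, macrophage markers gave 548 to 598 with empty vector, 503 to 740 with wild type and 561 to 638 with G183S, and adipocyte markers 437 to 502, 444 to 493 and 455 to 559. No gene of either list was called, with G183S included. The macrophage genes Adgre1 (-0.95), Mrc1 (1.34) and Lyz2 (0.19) had the smallest p with wild type (limma adjusted p = 0.31, 0.308 and 0.441). Mrc1 read 8.45 log2 units in wild-type replicate 1 and 7.39 in G183S replicate 1 against 5.64 to 7.18 elsewhere. In the adipocyte list the smallest p belonged to Lep (0.15), Adipoq (-0.26) and Plin1 (0.11), with limma adjusted p = 0.439, 0.64 and 0.67.

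Endothelial and platelet markers summed to 1401 to 1662 with empty vector, 1368 to 1578 with wild type and 1108 to 1248 with G183S, and moved both ways. As a description, the platelet gene Gp9 was lower with wild type and G183S (log2 difference -1.10 and -1.48, limma adjusted p = 0.00841 and 0.00129). The adhesion gene Pecam1 was lower too (-1.54 each, limma adjusted p = 0.0216 and 0.0303). The integrin gene Itgb3 rose with wild type (0.95, limma adjusted p = 0.0248). The plasma-cell markers, read as a check of the labelled cell line, were above the median over genes in all 3 groups, and summed to 33158 to 36968, 27967 to 37821 and 23536 to 38326. None of 8 was called; 5 were negative with wild type and 7 with G183S, with median log2 differences of -0.17 and -0.22. Sdc1 was at -0.64, Irf4 at 0.58 and Slamf7 at 0.40 with wild type (limma adjusted p = 0.339, 0.323 and 0.178), and at -1.14, -0.0056 and 0.077 with G183S (adjusted p = 0.119, 0.998 and 0.911). These genes had the smallest p with wild type. Over the 8 markers the log2 differences with G183S ran from -2.08 to 0.077, the lowest in a marker not named here. Markers of marginal zone B cells summed to 1204 to 1270, 1376 to 1595 and 1185 to 1495. With empty vector, wild type and G183S, 6, 4 and 5 of the 8 had group means below the median over genes. With wild type 6 were positive and 2 negative, and 1 was called (12.5%, beside 1.88% of all genes). This was the membrane-repair gene Myof, which was higher (1.91 ± 0.38 log2 units, SE, limma adjusted p = 0.0407). S1pr3 was at 0.22 and Cr2, the complement receptor, at 0.19 (limma adjusted p = 0.212 and 0.21). The part of other cell types in the Cd36 and Abcg1 values was not tested.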

How the data were processed

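Total RNA of 10 cultures was measured on Affymetrix arrays, 3 with empty vector, 3 with Pax5 WT and 4 with Pax5 G183S, grouped and numbered by the sample labels. The authors deposited log2 expression values per probe set; the submitters' processing notes list RMA and Partek, with no versions. Which arrays were normalized together is not given in the sources used here. Because RMA equalizes distributions between arrays, a change common to most genes would be hidden. No scan date or background signal was used. Of 34760 probe sets, 21640 carried 1 gene symbol in the platform annotation, 1321 several, and 11799 had no entry; 21553 matched a RefSeq gene identifier. The probe set with the highest mean was kept for each of 19937 genes, with no filter on dim ones.

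limma 3.58.1 in R 4.3.3 was fitted to all 10 arrays with 1 coefficient per group (7 residual and 2.88 prior degrees of freedom). It was tested on simulated data. Permutation tests used scipy 1.17.1 and were two-sided. Named genes are the members, Pax5, up to 3 genes per list with the smallest p with wild type, all called listed genes, and the 5 most similar to Cd36, Abcg1 and Abca1. The members and lists were chosen with earlier results of these data known. Promoter sequences are RefSeq's, GRCm38.p6. Alternatives were a replicate block, 2-group fits, median centring, leaving out dim genes, averaging probe sets, an intensity trend, array weights, and leaving out each array.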

Additional observations from a re-analysis of the deposited data

How the results depend on the processing

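The precision of every value is limited by the 3 or 4 arrays per group. Cd36 kept its direction from empty vector under every setting run, as did Abcg1. Of 477 recomputed member differences 470 were counted as unchanged. Between the Pax5 forms this meant the same direction and the same side of the threshold. Against empty vector it meant a move by less than the spread between replicates, whatever became of the call. Abcg1 with wild type is thus counted as unchanged where it missed the threshold, and the count does not measure how stable the calls were. In all, 23 recomputed values changed sign, in 8 of the 27 member differences, those of Lpl, Scarb1, Pparg and Nr1h3. None of these was larger than 0.13 log2 units in size before or after. For G183S minus wild type, Lpl was at -0.037 with the replicate block and ran from -0.068 to 0.10 with 1 array left out, and Scarb1 ran from -0.042 to 0.25. Abcg1 passed in that comparison with array weights (0.71, limma adjusted p = 0.0379) and without both Pax5 arrays numbered 1 (0.63, adjusted p = 0.0309), a setting added after seeing the data.

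Counts of called genes moved most. For wild type against empty vector, G183S against empty vector and G183S against wild type, all genes called were 374, 62 and 0 in the settings of the report, 228, 10 and 2 with the replicate block, and 2576, 1449 and 2752 with array weights. They were 690, 890 and 419 without both Pax5 arrays numbered 1, and the first was 587 with the 2 groups alone. With 1 array left out they ran from 6 to 1033, 8 to 295 and 0 to 1113. Members called ran from 1 to 2, stayed at 1, and ran from 0 to 1 when 1 array was left out. With array weights 1 member passed between G183S and wild type, and 3 with wild type against empty vector. There Fabp5 was added (0.71), which was not called in the settings of the report. Without both arrays numbered 1, 2 members passed with G183S and 1 between the Pax5 forms. The other lipid genes called ran from 0 to 10, 0 to 2 and 0 to 8 with 1 array left out. They were 29, 17 and 19 with array weights, 9, 8 and 1 without both arrays numbered 1, and 1 with G183S after median centring. The cause of these shifts was not tested.

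Same-numbered arrays were not treated as pairs. Correlations of their deviations from group means were -0.162 to 0.507 over 9 pairs, and the labels do not say that a number marks a shared day. Between wild type and G183S they were 0.507, -0.162 and 0.455 for replicates 1, 2 and 3. Pairs with empty vector lay between -0.162 and 0.108. Whether the same-numbered Pax5 arrays share a source of variation was not tested. The replicate block changed no member's call. Leaving out dim genes kept 6 of the 9 members. The relations with Pax5 level changed sign without the 2 outermost arrays for Cd36 (r = -0.163) and Abca1 (r = 0.252).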
